A study of Mus musculus with 20 samples.

Results

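The 10 genes described here belong to signalling by bone morphogenetic proteins (BMPs) and were taken by symbol from a table of 26722 mouse genes. All 10 were found in it, and all 10 passed the filter on low counts that left 14605 genes for testing. They were the target genes Id1, Id2 and Id3, the inhibitory Smads Smad6 and Smad7, the ligand gene Bmp4, the receptor genes Bmpr1a, Bmpr2 and Acvr1, and Rgs4. BMP receptors and targets are of interest here because muscle-specific kinase (MuSK), the receptor tyrosine kinase of the neuromuscular synapse, is also known as a BMP co-receptor.

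Total RNA came from C2C12 cells, mouse myoblasts that fuse to form myotubes when serum is lowered. Differentiation lasted 5 days and treatment 16 h, with 4 biological replicates in each of 5 groups. The control received 7.7 nM of b12, a negative control antibody of the human IgG4 class. A second group received 7.7 nM of 13-3B5, a bivalent antibody that activates MuSK. The remaining 3 groups received 0.1 nM neural agrin, the nerve-derived activator of MuSK, each with 7.7 nM of an antibody. In the agrin group that antibody was b12, so it shared b12 with the control. In the last 2 groups it was 13-3B5xb12 or 11-3F6xb12, monovalent MuSK antibodies that the labels call inhibiting. No group received a BMP, and no group without any antibody is described in the labels. All libraries came from a single cell line, and what a shared replicate number stands for is not stated.

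BMP ligands bind type I receptors, such as those encoded by Bmpr1a and Acvr1, together with type II receptors such as that of Bmpr2. The active complex phosphorylates Smad1, Smad5 and Smad9, which join Smad4 in the nucleus and bind DNA at GC-rich elements and at short Smad boxes. In myogenic cells this signalling is known for inducing the Id genes, whose products hold back differentiation, and for inducing Smad6 and Smad7, whose products feed back on the receptors. Rgs4 encodes a regulator of G protein signalling, and its expression in cultured muscle cells has been linked to BMP4 acting through MuSK.

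Sequence upstream of the members' start sites was examined because these short elements are the route by which BMP Smads reach their targets. RefSeq promoters (GRCm38.p6) were available for 8 of the 10 members, all except Id1 and Smad7, and the 250 bases before each start were searched on both strands. The GC-rich element GGCGCC was in the windows of Id2, Bmpr1a and Bmpr2, against 9.59% of all 32851 promoters in the table. The Smad box, searched as CAGAC or GTCTG, was in those of Id3 and Rgs4, against 42.2% of all promoters. The E-box CANNTG, a site for myogenic factors, was in those of Id2, Bmp4 and Rgs4, against 66.2%. The windows of Smad6 and Acvr1 held no match to these letters. A match describes the letters only. The sites of Id2 and Id3 are printed for the target genes, and the whole window of Rgs4 for the member with the largest fitted differences between treatments. Capitals mark the GC-rich element in Id2 and the Smad boxes in Id3 and Rgs4. The Id2 site was 231 bases before the start (chr12:25096306-25096335, minus strand). The Id3 sites were 167 and 68 bases before it (chr4:136143643-136143671 and chr4:136143742-136143770, plus strand). The Rgs4 window (chr1:169747643-169747892, minus strand) held its Smad box 72 bases before the start, and its 4 E-boxes are in lower case. On the GENCODE gene models, annotated exons cover 161 of the 250 bases of the Id2 window, all 250 of the Id3 window and 0 of the Rgs4 window. They cover 141 bases of the Bmpr1a window, all 250 of those of Bmpr2 and Acvr1, and 0 of those of Smad6 and Bmp4. G and C made up 62.8% of the Id2 window, 78.8% of that of Bmpr1a and 64.0% of that of Bmpr2. The shares over all promoters are not matched for this content.
Id2: tcaggccccctgGGCGCCcagcgcacactg
Id3: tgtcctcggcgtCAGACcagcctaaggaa
Id3: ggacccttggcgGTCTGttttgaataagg
Rgs4: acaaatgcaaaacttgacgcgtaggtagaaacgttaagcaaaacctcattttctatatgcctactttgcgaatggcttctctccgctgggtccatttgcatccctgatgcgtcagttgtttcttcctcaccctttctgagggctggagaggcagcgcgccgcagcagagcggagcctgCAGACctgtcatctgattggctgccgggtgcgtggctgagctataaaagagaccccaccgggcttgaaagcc

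Total counts were between 18424881 and 23343903 per library, and all 8 myotube markers, such as Ckm and Acta1, passed the filter, with a summed level of 8171 to 10693 CPM (counts scaled to a common library total). Endothelial markers summed to at most 0.776 CPM, osteoblast markers to at most 0.591 CPM, and Plin1, an adipocyte marker, was at 0 in all 20 libraries. A pair of libraries stood apart. Replicate 1 of agrin with 13-3B5xb12 had counts for the fewest genes (16261, against 17089 to 18259 elsewhere), and agrin replicate 3 held liver markers at a sum of 10.0 CPM, against at most 0.254 CPM elsewhere. Some of the differences described for Smad7, Bmp4, Acvr1 and Rgs4, and levels of 3 pathway genes, are also given without them. All CPM values are after trimmed mean of M-values (TMM) scaling. In bulk RNA, fewer cells of a type and less RNA per cell cannot be told apart.

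The members lie on 7 chromosomes of GRCm38: Bmpr2 (1: 59763400 to 59879014) and Rgs4 (1: 169741477 to 169747642), Acvr1 (2: 58388644 to 58567157) and Id1 (2: 152736251 to 152737410), Id3 (4: 136143497 to 136145755), Smad6 (9: 63953076 to 64022059), Id2 (12: 25093799 to 25097140), Bmpr1a (14: 34410734 to 34503341) and Bmp4 (14: 46383520 to 46390669), and Smad7 on chromosome 18. All 10 are protein-coding genes. Their levels spanned a wide range. Per kilobase of exon, on GRCm38 gene models, Bmpr1a was the highest at 38.0 CPM per kb, and Rgs4 the lowest at 0.203 CPM per kb. The other 8 lay between 1.69 (Smad6) and 5.20 (Id1) CPM per kb, in the order Id1, Bmpr2, Id2, Bmp4, Id3, Acvr1, Smad7 and Smad6. The middle of that order was close, with Bmpr2 at 4.71, Id2 at 4.52 and Bmp4 at 4.39 CPM per kb. Levels over the 20 libraries varied least for Bmpr1a, with a coefficient of variation of 4.83%, and most for Rgs4, with 74.7%. Counts behind these levels ran from 83 to 188 per library for Id1 and from 4208 to 5933 for Bmpr1a, but only from 0 to 31 for Rgs4.

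**Figure D1:**
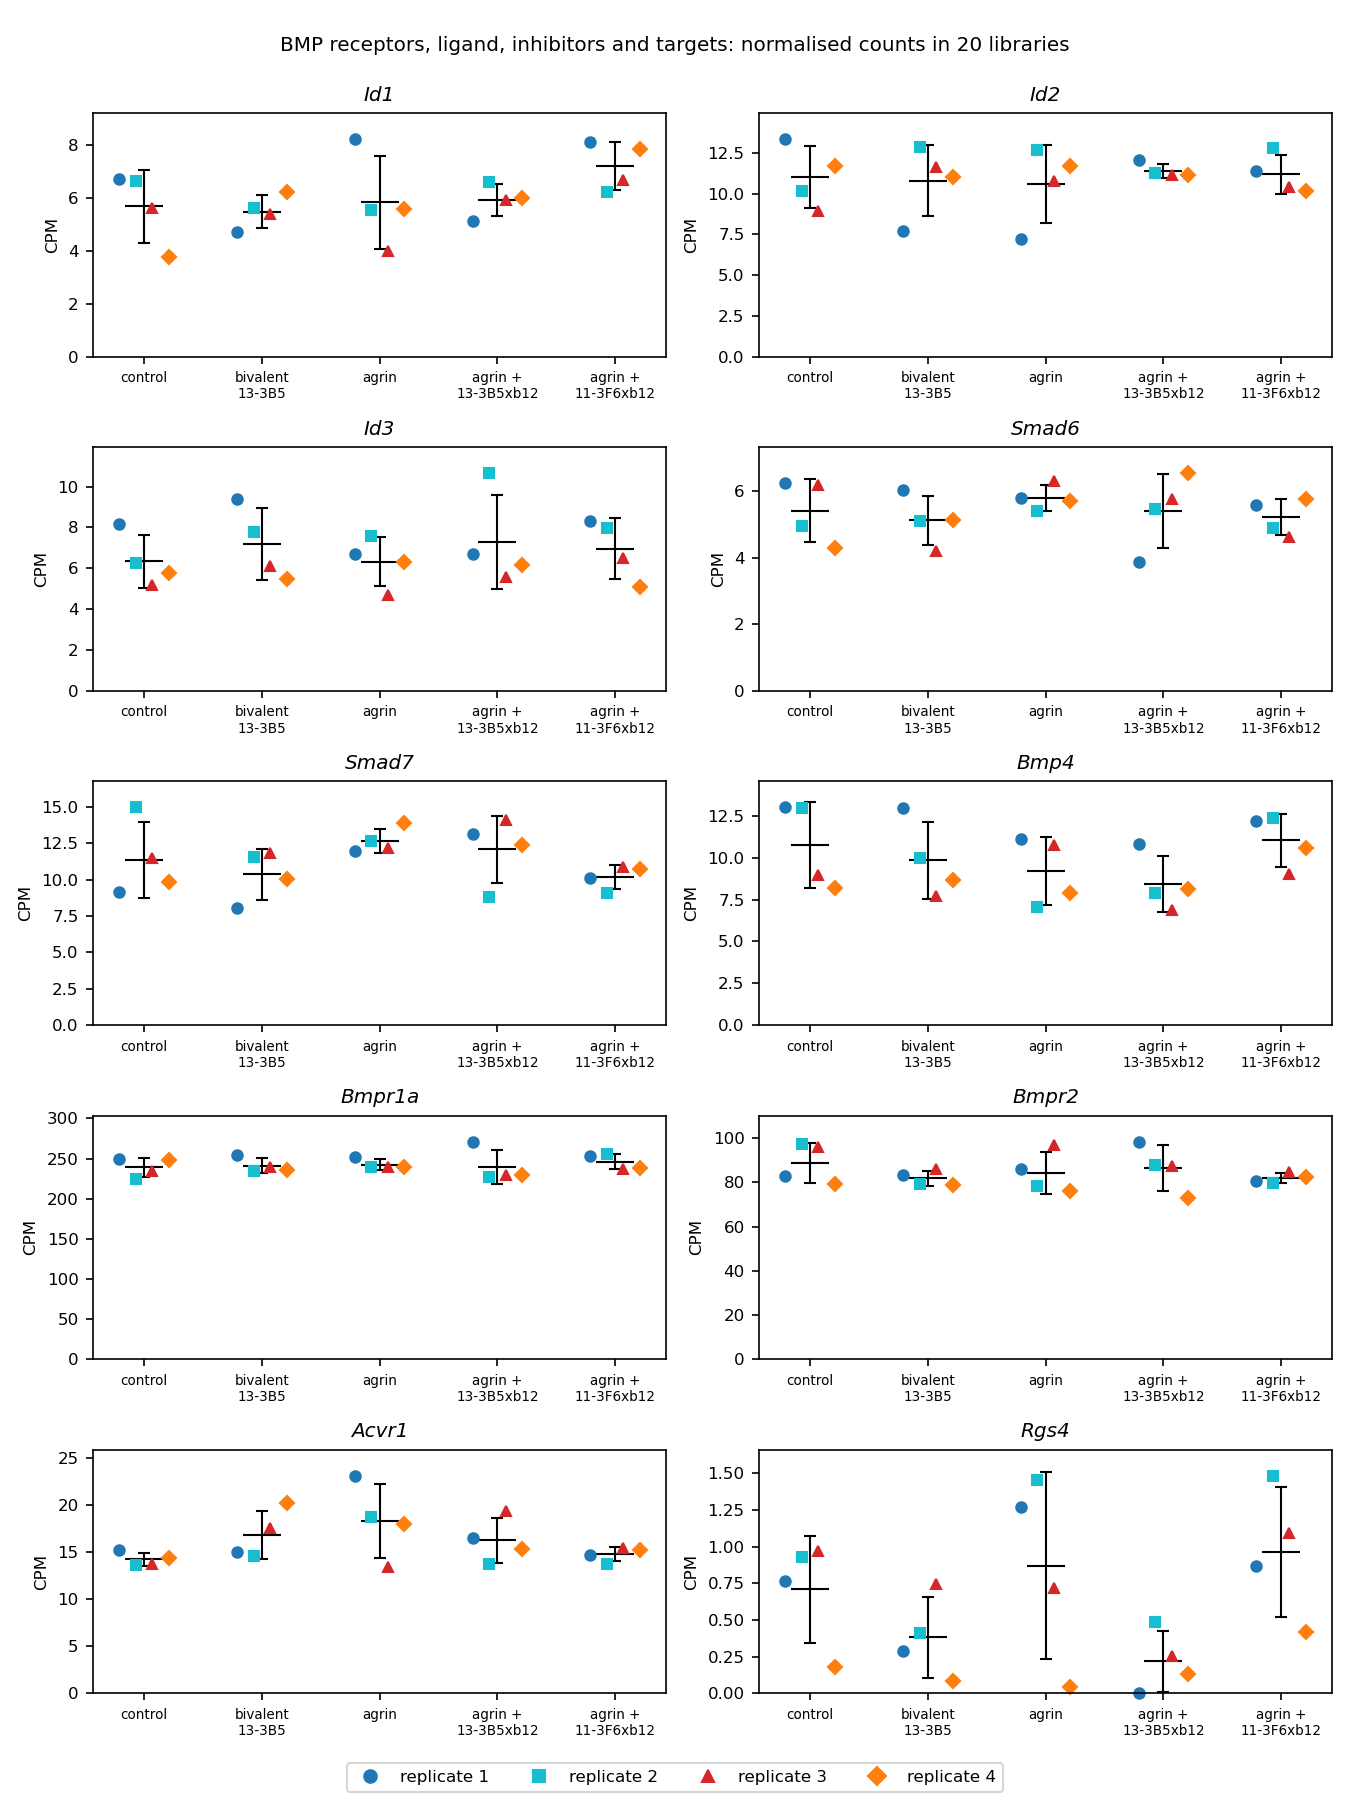
Level of each of the 10 members in every library (CPM, each panel with its own axis from 0), by treatment; points are the 4 replicates, with a colour and shape for each number, and bars are the mean ± SD. Groups overlap in nearly every panel, and Rgs4 is lowest in the agrin with 13-3B5xb12 group, at 0.217 CPM on average.

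No member passed the test between treatments. An F-test for any difference among the 5 treatments, by edgeR's quasi-likelihood method with Benjamini-Hochberg adjustment, called 0 of 10 members, and it called 0% of all genes. At an unadjusted p under 0.05 it gave 0 of 10 members against 2.25% of all genes. Rgs4 and Acvr1 came closest among members, with treatment holding 34.0% and 32.9% of the variance of their log2 level, but had an edgeR adjusted p of 1.00. Each of the 8 comparisons between pairs of treatments also called 0 members and 0% of all genes. DESeq2 likewise called 0 members in each. With the replicate number as a block, 0 of 10 members were called as well, against 0.0137% of all genes for any difference and for 11-3F6xb12 against agrin, 0.0205% for 11-3F6xb12 against control, 0.0342% between the monovalent antibodies and 0% in the other comparisons. Before adjustment, 0 of 10 members were under 0.05 for bivalent 13-3B5 against agrin and for 13-3B5xb12 against control, where 2.39% of all genes were in both, and for 11-3F6xb12 against control, where 3.25% were. With the block, more members were under an unadjusted 0.05 in 3 tests, and none of these passed after adjustment. They were Bmp4 and Rgs4 for 13-3B5xb12 against control (2 of 10 members, against 3.17% of all genes), the same 2 between the monovalent antibodies (6.19%), and Rgs4 for any difference (1 of 10, against 3.87%). The block left the unadjusted count at 1 for agrin against control (3.98% of all genes), 13-3B5xb12 against agrin (5.02%) and 11-3F6xb12 against agrin (4.83%). It left it at 0 for bivalent 13-3B5 against control (3.96%) and against agrin (3.01%), and for 11-3F6xb12 against control (4.64%).

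The Id genes, the classical readout of BMP signalling, did not differ between agrin and the control beyond the spread of replicates. In the control, Id1 was at 6.72, 6.64, 5.62 and 3.76 CPM in replicates 1 to 4. With agrin it was at 8.23, 5.54, 4.01 and 5.58 CPM. The 2 groups overlapped over most of their range, and the fold of agrin over control was 1.03 (95% interval 0.762 to 1.38). For Id2 that fold was 0.960 (0.755 to 1.22), and for Id3 it was 0.995 (0.724 to 1.37). Bivalent 13-3B5 gave 4.71, 5.60, 5.40 and 6.21 CPM for Id1, all inside the range of the agrin group. Its folds over the control were 0.965 for Id1 (0.716 to 1.30), 0.979 for Id2 (0.770 to 1.25) and 1.13 for Id3 (0.826 to 1.56). Increases or decreases of the Id genes beyond these bounds lie outside the intervals, and smaller ones were not resolvable with 4 libraries a group.

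With agrin and 11-3F6xb12, Id1 was at 8.11, 6.23, 6.69 and 7.86 CPM, and its mean of 7.22 ± 0.907 CPM (SD, n = 4) was the highest of the 5 groups. The control mean was 5.69 ± 1.38 CPM and the agrin mean 5.84 ± 1.75 CPM. These ranges overlapped, and the log2 fold change was 0.35 over the control (SE 0.21, adjusted p = 1.00) and 0.31 over agrin (SE 0.21). Agrin with 13-3B5xb12 left Id1 at 5.12, 6.62, 5.94 and 5.98 CPM. Between the 2 monovalent antibodies, matched for dose and time, Id1 differed by a log2 fold change of 0.29 (95% interval -0.14 to 0.72). For Id2 and Id3 that difference was -0.03 (-0.37 to 0.32) and -0.06 (-0.52 to 0.40). Id2 was nearly level over groups, with means from 10.6 ± 2.38 CPM (agrin) to 11.4 ± 0.439 CPM (agrin with 13-3B5xb12). Group means of Id3 ran from 6.31 ± 1.204 CPM (agrin) to 7.27 ± 2.30 CPM (agrin with 13-3B5xb12).

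Of the inhibitory Smads, Smad7 showed the clearer arrangement. It was at 11.997, 12.6, 12.2 and 13.9 CPM with agrin. With bivalent 13-3B5 it was at 8.02, 11.6, 11.9 and 10.1 CPM, and with agrin and 11-3F6xb12 at 10.1, 9.05, 10.9 and 10.7 CPM. Every library of either antibody group was below every library of the agrin group. Non-overlapping groups were found for 1 of 10 members in both comparisons, against 2.38% of all genes for bivalent 13-3B5 and 2.9% for 11-3F6xb12. Both comparisons share the agrin libraries. In the other 6 comparisons the groups overlapped for all 10 members. The share of all genes with non-overlapping groups was there 1.72% (agrin against control), 1.88% (bivalent 13-3B5 against control), 2.31% (13-3B5xb12 against agrin), 1.64% (13-3B5xb12 against control), 2.16% (11-3F6xb12 against control) and 2.72% (between the monovalent antibodies). The log2 fold changes were -0.29 (SE 0.16, 95% interval -0.62 to 0.05) and -0.31 (SE 0.16, -0.65 to 0.02), and neither passed, with adjusted p of 1.00 for both. Without the 2 libraries that stood apart they were -0.31 and -0.33, with edgeR adjusted p of 1.00 and 0.999. The control, at 9.16, 14.96, 11.5 and 9.82 CPM, overlapped all 3 of these groups. Agrin with 13-3B5xb12 gave 13.1, 8.77, 14.1 and 12.4 CPM, which straddled the agrin values.

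Smad6, which acts more on BMP than on other receptors of the family, had group means between 5.13 ± 0.750 CPM (bivalent 13-3B5) and 5.81 ± 0.386 CPM (agrin). Its largest difference from the control or from agrin was a log2 fold change of -0.18 (SE 0.19), for bivalent 13-3B5 against agrin.

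Bmp4, the only ligand gene among the members, was at 13.0, 13.0, 8.95 and 8.19 CPM in the control. With agrin and 13-3B5xb12 it was at 10.8, 7.91, 6.87 and 8.12 CPM, below the same-numbered control library in 4 of 4 cases. The log2 fold change was -0.35 (SE 0.20, 95% interval -0.76 to 0.05, edgeR adjusted p = 1.00). With agrin and 11-3F6xb12 the values were 12.2, 12.4, 9.01 and 10.6 CPM, above the same-numbered library of 13-3B5xb12 in 4 of 4 cases. That difference was 0.39 on the log2 scale (SE 0.20, 95% interval -0.01 to 0.79, edgeR adjusted p = 0.992). These differences were, without the 2 libraries that stood apart, -0.50 and 0.53, with adjusted p of 0.999 and 1.00 by edgeR. In the control and the 11-3F6xb12 group alike, replicates 1 and 2 were higher than 3 and 4. Counts of same-numbered pairs, here and below, are a description and not a paired test. Their share over all genes is not given, so 4 of 4 cannot be called unusual. Acvr1 also had 4 of 4 pairs higher for 13-3B5xb12 against control, and 4 of 4 lower for 11-3F6xb12 against 13-3B5xb12. For Rgs4, 11-3F6xb12 was above the control in 4 of 4 pairs. What a shared number stands for is not stated. Same-numbered libraries deviated together with a mean correlation of 0.195, against 0.201 for different numbers, both 1 and 2 or both 3 and 4. On the gene models, 89 exonic bases of Bmp4 (3.96%) overlap Gm15217 on the opposite strand, and the use of strand in counting is not given in the sources used here.

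The receptor genes Bmpr1a and Bmpr2 gave the narrowest intervals. Bmpr1a was at 250, 225, 235 and 248 CPM in the control and at 252, 239, 239 and 239 CPM with agrin. Its fold of agrin over control was 1.01 (95% interval 0.921 to 1.116), and that of bivalent 13-3B5 over control was 1.01 (0.915 to 1.11). Replicate 1 of agrin with 13-3B5xb12 held the highest value, 271 CPM. The antisense gene Gm17110 shares 290 exonic bases with Bmpr1a (4.57%). For Bmpr2, the type II receptor, the fold of agrin over control was 0.949 (0.838 to 1.08), and group means ran from 81.9 ± 3.40 CPM (bivalent 13-3B5) to 88.8 ± 9.16 CPM (control).

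Acvr1, which encodes the type I receptor ALK2, was the member farthest from 0, relative to its error, for agrin against control. It was at 15.2, 13.6, 13.8 and 14.3 CPM in the control and at 23.1, 18.7, 13.5 and 18.03 CPM with agrin. Agrin was higher in 3 of 4 same-numbered pairs, and agrin replicate 3 lay below the whole control group. The log2 fold change was 0.36 (SE 0.14, 95% interval 0.08 to 0.65), and it did not pass (edgeR adjusted p = 1.00). At an unadjusted p under 0.05 this comparison gave 1 of 10 members against 2.85% of all genes. The difference was 0.49 without the 2 libraries that stood apart, agrin replicate 3 among them (edgeR adjusted p = 0.982). Without agrin replicate 1 it was 0.23, no longer under an unadjusted 0.05. Bivalent 13-3B5 gave 14.99, 14.6, 17.5 and 20.2 CPM, a log2 fold change of 0.24 over the control (SE 0.14, 95% interval -0.05 to 0.53). That comparison had 0 of 10 members and 2.77% of all genes at an unadjusted p under 0.05.

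Both monovalent antibodies were below agrin for Acvr1 on average. These comparisons and that of agrin against control share the agrin libraries, so they are not separate results. With 11-3F6xb12 the gene was at 14.7, 13.7, 15.4 and 15.3 CPM, close to the control, and the log2 fold change against agrin was -0.31 (SE 0.14, 95% interval -0.60 to -0.02, edgeR adjusted p = 1.00). It was -0.18 without agrin replicate 1 and -0.43 without the 2 libraries that stood apart. Here too 1 of 10 members was under an unadjusted 0.05, against 3.33% of all genes. With 13-3B5xb12 it was at 16.5, 13.8, 19.3 and 15.3 CPM, a difference of -0.17 (SE 0.14) from agrin. Against the control, that group differed by 0.19 (SE 0.14, 95% interval -0.10 to 0.48). The difference between the 2 antibodies themselves was -0.14 (95% interval -0.43 to 0.15).

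**Figure D2:**
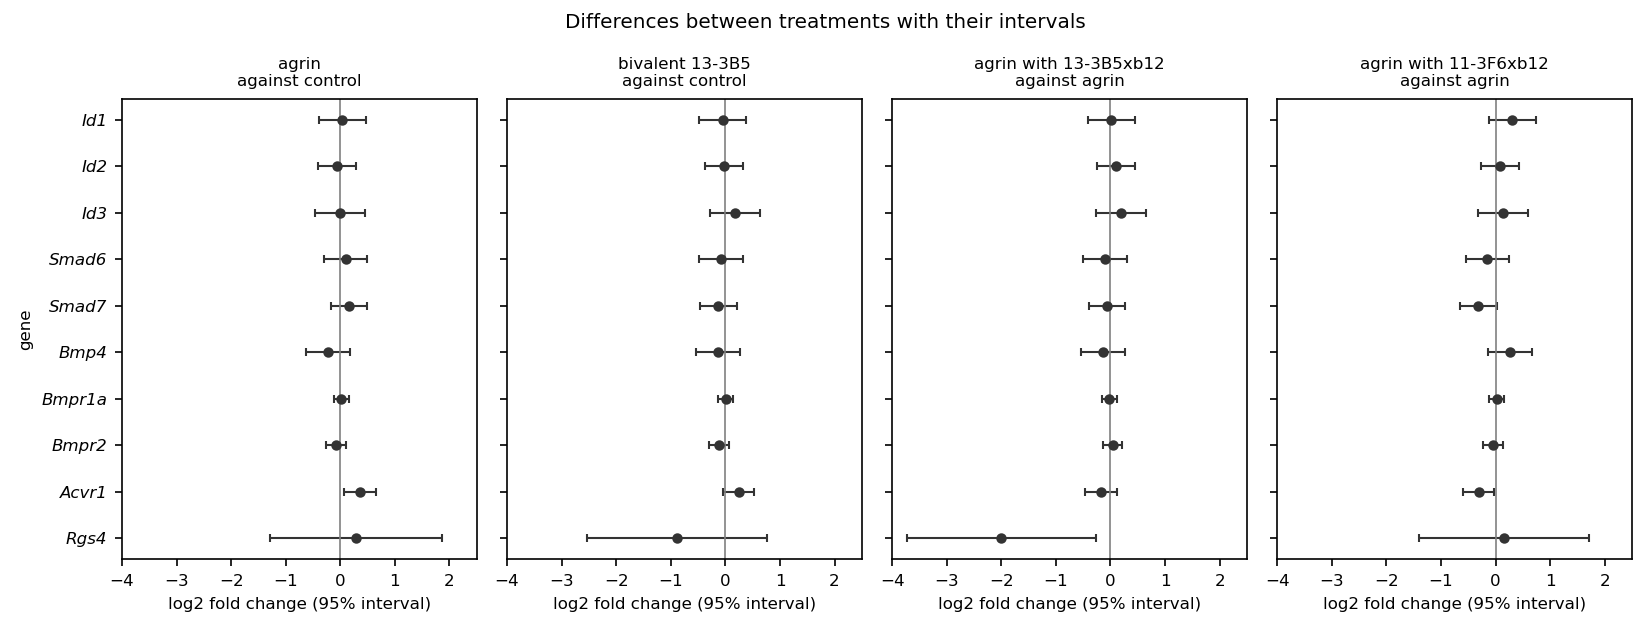
Log2 fold change of each member (point) with its 95% interval (bar) in 4 comparisons; the vertical line marks no difference. Bmpr1a and Bmpr2 have the narrowest intervals, Rgs4 the widest, and the interval of Acvr1 for agrin against control runs from 0.08 to 0.65.

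Rgs4 had the largest fitted differences and the fewest reads. Its counts were 16, 20, 19 and 4 in the control and 28, 31, 17 and 1 with agrin, in replicates 1 to 4. With bivalent 13-3B5 they were 6, 9, 17 and 2. With agrin and 13-3B5xb12 they were 0, 9, 6 and 3, and with agrin and 11-3F6xb12 they were 18, 30, 24 and 10. Both groups that received a form of 13-3B5 were low, and the replicate 4 library was the lowest of its group in 4 of the 5 treatments. A count of 0 allows up to 3 counts, which is 0.125 to 0.161 CPM in these libraries, and Rgs4 was at or under that floor in 4 of 20 libraries.

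In CPM, the Rgs4 mean was 0.711 ± 0.365 in the control, 0.383 ± 0.277 with bivalent 13-3B5, 0.872 ± 0.636 with agrin, 0.217 ± 0.206 when 13-3B5xb12 was added to agrin, and 0.966 ± 0.445 when 11-3F6xb12 was (SD, n = 4 each). The 2 monovalent antibodies differed by a log2 fold change of 2.15 (SE 0.85, 95% interval 0.42 to 3.88), with 11-3F6xb12 higher in 4 of 4 same-numbered pairs, but their ranges overlapped. The edgeR adjusted p was 0.992. That comparison had 1 of 10 members at an unadjusted p under 0.05, against 4.22% of all genes. Agrin with 13-3B5xb12 was lower than agrin in 3 of 4 pairs, with a log2 fold change of -2.0 (SE 0.85, 95% interval -3.73 to -0.27, edgeR adjusted p = 0.999). There too 1 of 10 members, against 3.83% of all genes, was under the unadjusted threshold.

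Bivalent 13-3B5 was below the control for Rgs4 in 4 of 4 pairs, with a log2 fold change of -0.88 (SE 0.80, 95% interval -2.53 to 0.76). Against agrin the difference was -1.17 (SE 0.80). Agrin with 13-3B5xb12 was also below the control in 4 of 4 pairs, by a log2 fold change of -1.71 (SE 0.85, 95% interval -3.45 to 0.03, edgeR adjusted p = 1.00), or -1.30 without the 2 libraries that stood apart. Agrin itself differed from the control by 0.29 (SE 0.77), and the 95% interval, -1.29 to 1.87, reached beyond 1 in both directions. Without the 2 libraries that stood apart, the difference between the monovalent antibodies was 1.74 and that of 13-3B5xb12 against agrin was -1.67, and the second was no longer under an unadjusted 0.05. With the replicate 4 libraries left out, an alternative chosen after seeing the data, they were 2.22 and -2.22, with edgeR adjusted p of 0.658 and 0.930.

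After the means of each replicate number were subtracted, the genes whose log2 level was most like that of Rgs4 over the 20 libraries were Myl9, a myosin light chain gene (r = 0.862), Cnn2, a calponin gene (r = 0.836), and Ccdc88a (r = 0.800), out of 11140 genes ranked. Myl9 was at 26.3 ± 4.72 CPM in the control, 23.1 ± 1.625 CPM with bivalent 13-3B5 and 26.65 ± 5.55 CPM with agrin (SD, n = 4). It was at 20.4 ± 0.602 CPM with agrin and 13-3B5xb12 and at 29.3 ± 3.51 CPM with agrin and 11-3F6xb12. The difference between the monovalent antibodies did not pass (edgeR adjusted p = 0.992). Treatment differences stayed in these correlations, so a gene picked this way shares the Rgs4 pattern by its selection. For the mean of the 3 Id genes the most alike was Pgrmc1 (r = 0.771), and for the mean of Smad6 and Smad7 it was P3h1 (r = 0.726). These are the highest of many correlations within one set of libraries, and they carry no test.

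Across replicate numbers, 1 of the 10 members passed. The F-test across the 4 numbers, with treatment kept in the model, called Id3, and it called 7.19% of all genes, a share close to that of the members. Over the 5 treatments, Id3 averaged 7.85 ± 1.16, 8.05 ± 1.60, 5.60 ± 0.727 and 5.75 ± 0.512 CPM in replicates 1, 2, 3 and 4 (SD, n = 5 each; edgeR adjusted p = 0.0421). Libraries numbered 3 and 4 were thus at 0.714 of the mean of those numbered 1 and 2, and the ranges, 4.68 to 6.51 and 6.27 to 10.7 CPM, overlapped slightly. The Id3 call was lost in 15 of the 20 fits that each left out 1 library, where its adjusted p ran from 0.0152 to 0.106.

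Bmp4 averaged 12.04, 10.1, 8.66 and 8.70 CPM in the 4 numbers (adjusted p = 0.0812), and Rgs4 averaged 0.639, 0.952, 0.756 and 0.171 CPM (adjusted p = 0.104). Neither passed by edgeR, and both passed by DESeq2, with adjusted p of 0.0363 for Bmp4 and 0.00796 for Rgs4. DESeq2 thus called 3 of 10 members, against 9.79% of all genes. Without the 2 libraries that stood apart, edgeR called Id3 (adjusted p = 0.0306), Bmp4 (0.0284) and Rgs4 (0.0385), against 8.52% of all genes. For Id1 the means were 6.58, 6.13, 5.53 and 5.88 CPM, with an adjusted p of 0.874. Of the variance in log2 level, replicate number held 62.1% for Id3, 43.1% for Bmp4 and 42.0% for Rgs4, and treatment held 7.07%, 23.6% and 34.0%. The median over all genes tested was 18.1% for replicate number and 17.3% for treatment.

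**Figure D3:**
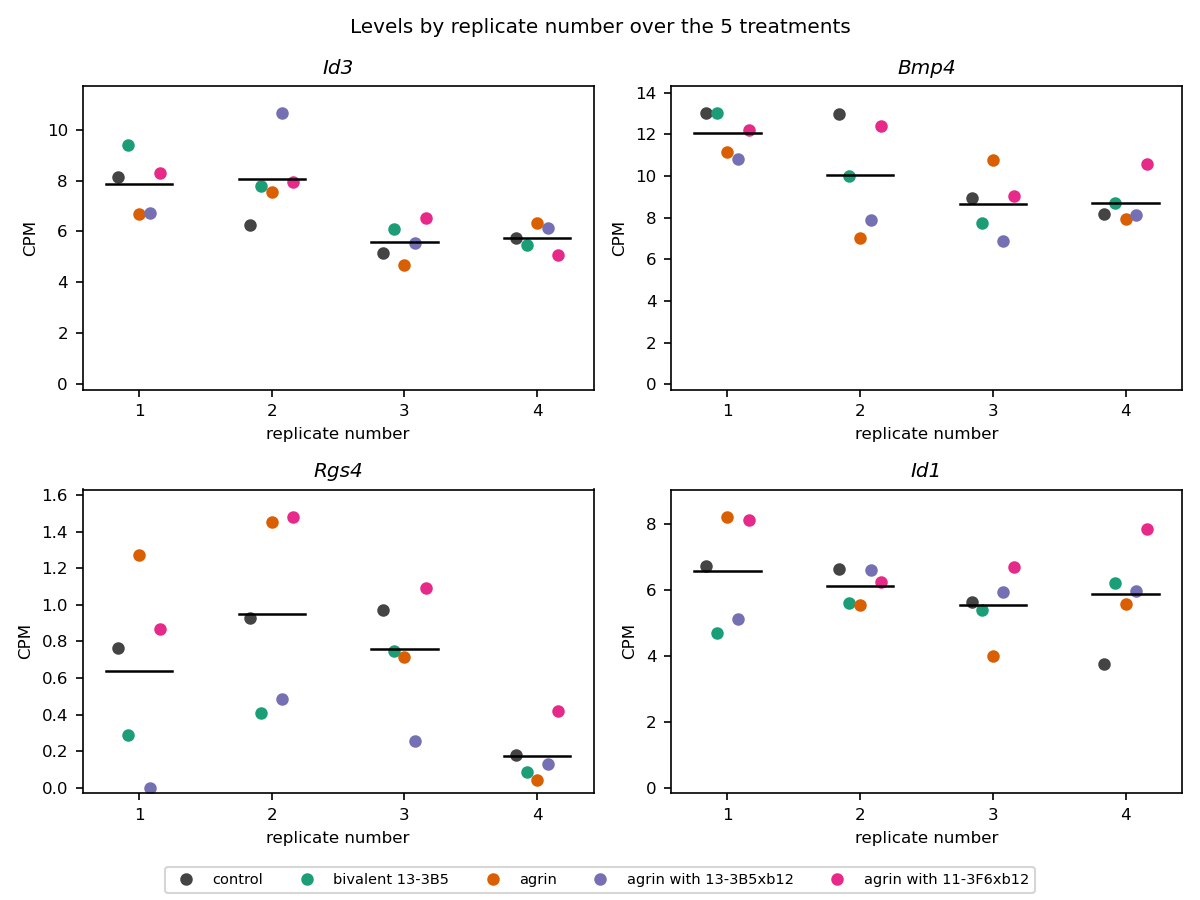
Level (CPM) of Id3, Bmp4, Rgs4 and Id1 by replicate number; each point is 1 library, coloured by treatment, and the horizontal bar is the mean of 5 libraries. Id3 lies lower in numbers 3 and 4 (means 5.60 and 5.75 CPM) than in 1 and 2, and Rgs4 is low in number 4 (mean 0.171 CPM).

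Of 20 markers of myotubes, dividing cells and undifferentiated or reserve cells, 5 passed the test across replicate numbers, against 7.19% of all genes. The summed level of 8 myotube markers had medians of 10055, 10208, 8937 and 8964 CPM in replicates 1 to 4, and 3 of the 8, Ckm, Tnnt3 and Tnnc2, passed. The other 5, Acta1, Mylpf, Myog, Myh3 and Myh8, did not. The summed level of 6 markers of dividing cells had medians of 161, 184, 119 and 117 CPM, and 1 of them, Ccnb1, passed. Markers of undifferentiated or reserve cells summed to medians of 114, 111, 110 and 110 CPM. Of these, Cd34 passed, with means of 41.2, 37.8, 47.9 and 47.2 CPM, higher in replicates 3 and 4. Myf5 was also higher there on average and did not pass (edgeR adjusted p = 0.272). Notch3, Heyl, Spry1 and Pax7 went the other way and did not pass either (adjusted p = 0.0642, 0.0764, 0.0799 and 0.777). Spry1, for example, averaged 37.1, 35.5, 29.8 and 28.5 CPM in replicates 1 to 4. The part of the cells behind these 20 markers in the Id3, Bmp4 and Rgs4 values was not tested.

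Libraries were split into replicates 1 and 2 and replicates 3 and 4 because they fell into these sets in earlier results of these data. Agreement between replicates, given below, followed that split in some groups but not in all. Within replicates 1 and 2, and within 3 and 4, the members did not vary together detectably. Of 14 relations examined (7 gene pairs in 10 libraries each, with 100000 permutations), none passed, and the smallest adjusted p was 0.863 by Pearson and 0.667 by Spearman. By Pearson's r, Smad6 and Smad7 gave both extremes, with r = -0.536 in replicates 1 and 2 (permutation p = 0.104, rho = -0.503, p = 0.143) and r = 0.480 in replicates 3 and 4 (permutation p = 0.159, rho = 0.418, p = 0.232). Without the 2 libraries farthest from the median of Smad6, these were -0.406 and 0.429. By Spearman's rho the extremes were in replicates 3 and 4, at rho = -0.552 for Id1 and Id2 (permutation p = 0.105, r = -0.343) and rho = 0.503 for Id2 and Id3 (permutation p = 0.143, r = 0.459). Pearson's r for these, without the 2 libraries farthest from the median of the first gene, was -0.276 and 0.187.

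A wider list of 57 names of the BMP pathway, counting Hjv also by its older symbol Hfe2, had 49 in the table and 37 that could be tested. Treatment called 0 of the 37 in any comparison, and the median log2 fold change of agrin over control was -0.02 for the list and 0.0004 for all genes. Musk, which encodes the co-receptor itself, was at 55.4 ± 7.42 CPM in the control and 50.0 ± 4.48 CPM with agrin. Among transducers and regulators, Smurf1, a ubiquitin ligase that targets BMP Smads, was at 66.4 ± 3.88 CPM in the control, 57.1 ± 3.44 CPM with agrin and 69.2 ± 7.12 CPM with agrin and 13-3B5xb12 (edgeR adjusted p = 1.00 for any difference). Smad1, a BMP Smad, was at 39.7 ± 2.73 CPM in the control and 46.6 ± 8.92 CPM with agrin and 13-3B5xb12, or 42.4 ± 3.72 CPM without replicate 1, which stood apart (n = 3). Fbxo30, which encodes MUSA1, a ubiquitin ligase of muscle that BMP signalling is known to repress, was at 45.6 ± 1.36 CPM in the control, 39.2 ± 2.63 CPM with agrin and 46.4 ± 1.13 CPM with agrin and 13-3B5xb12 (edgeR adjusted p = 1.00). Without the library of each group that stood apart (n = 3), Smurf1 was at 56.7 ± 4.14 CPM with agrin and 65.7 ± 0.729 CPM with agrin and 13-3B5xb12, and Fbxo30 at 38.8 ± 3.02 and 46.2 ± 1.31 CPM. Both Smurf1 and Fbxo30, named for the smallest p of their role, were under an unadjusted p of 0.05 in the test for any difference. In that test 3 of the 37 genes were under it, against 2.25% of all genes. Other genes named by the rule were Gdf5, Eng, Acvr2a, Hjv, Twsg1, Fstl1, Ppm1a and Atoh8, none of which was under it.

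**Figure D4:**
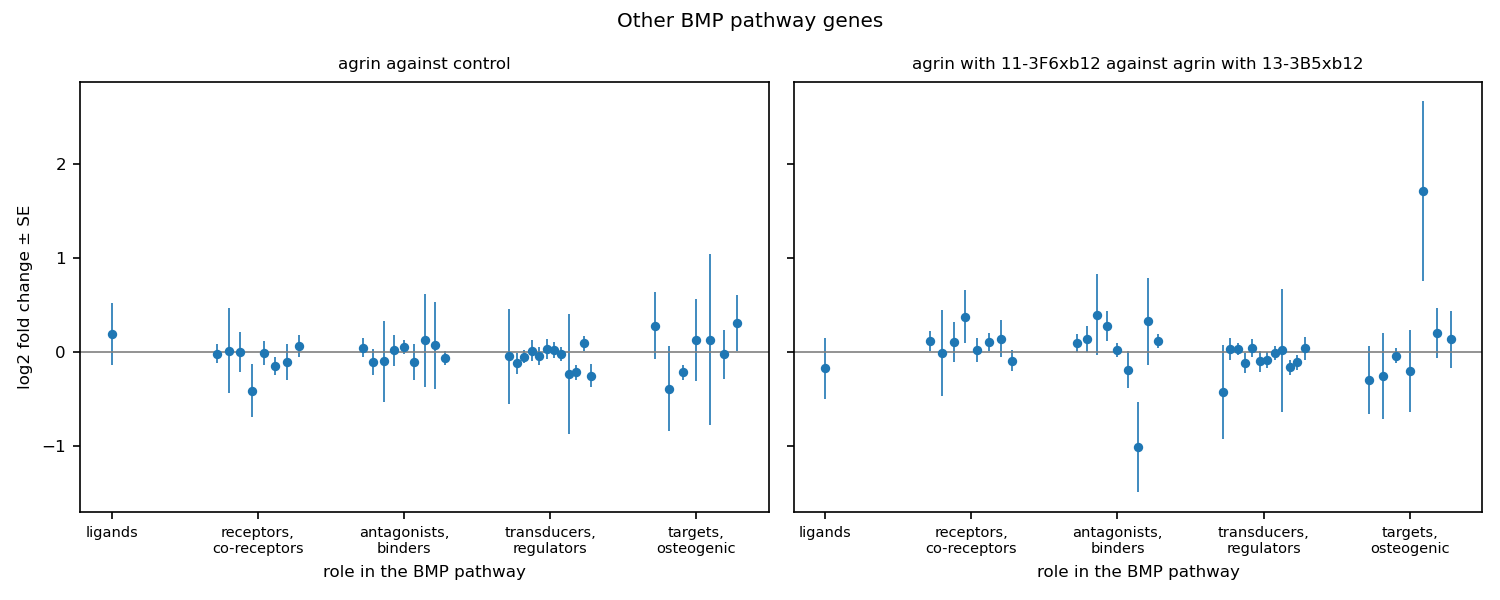
Log2 fold change ± SE (vertical axis) of the 37 tested pathway genes, grouped by role, for agrin against control and for the 2 monovalent antibodies against each other; each point is 1 gene. Nearly all points lie close to 0, and the list's median for agrin against control is -0.02.

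Replicate number called 7 of the 37, against 7.19% of all genes. Of the 7, 4 were among the 9 secreted antagonists and binders, 2 among the 8 receptors and co-receptors and 1 the only ligand tested. Chrdl1, an antagonist related to chordin, averaged 18.1 ± 2.74, 17.5 ± 3.42, 8.60 ± 0.962 and 8.75 ± 1.75 CPM in replicates 1, 2, 3 and 4 (SD, n = 5; edgeR adjusted p = 1.56e-08). Fst, which encodes follistatin, averaged 106, 97.7, 79.7 and 78.7 CPM (adjusted p = 2.34e-05), and Chrd 23.7, 25.5, 19.6 and 20.9 CPM (adjusted p = 0.0278). Grem1 went the other way, at 251, 255, 306 and 355 CPM (adjusted p = 0.000475). Hjv, a BMP co-receptor of muscle, averaged 139, 136, 107.5 and 112 CPM (adjusted p = 9.30e-06). Acvr2a, a type II receptor, averaged 51.3, 45.4, 42.0 and 42.5 CPM, and the ligand gene Gdf5 averaged 6.09, 5.02, 3.23 and 3.53 CPM. Chrdl1, Fst, Chrd and Grem1 are named after their values were seen. Of 9 other RGS family genes tested, treatment called 0, and replicate number called 1, Rgs12, against the same 7.19% of all genes.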

How the data were processed

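Total RNA of 20 libraries was sequenced, 4 biological replicates of each of 5 treatments. RNA was extracted with the miRNAeasy Mini kit, and libraries were made with TruSeq Stranded Total RNA with Ribo-Zero for a NovaSeq instrument, per the labels' protocols. The deposited table holds whole-number counts per gene, not normalized. The tools named are Trim Galore 0.6.6, cutadapt 2.10, STAR 2.7.6a, HTSeq 0.12.4 and DESeq2 1.32.0, with build GRCm38, per the submitters' processing notes. How strand and duplicate reads were handled, and the annotation release, are not given in the sources used here. Positions are from GENCODE M21, in which 26667 of 26722 gene IDs were found.

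edgeR 4.0.16 (R 4.3.3) was used on the counts. The filter was filterByExpr (minimum count 10, minimum total 15). Libraries were scaled by TMM, and genes were fitted in 1 robust quasi-likelihood model of treatment over all libraries, with 15 residual degrees of freedom. Tests were two-sided, with Benjamini-Hochberg adjustment over 14605 genes and a threshold of 0.05. Standard errors were derived from the fold change and its F value, and intervals are 95% t intervals. A reported CPM uses the TMM-scaled total. Log2 CPM used a prior count of 2. The steps were tested on simulated data. The 95% intervals include the spread between replicate libraries as fitted by the model. Floors cover counting error only, and PCR copies are not independent molecules.

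The members and gene lists were chosen with earlier results of these data known. All members were named. From the pathway list, up to 2 genes per role with the smallest p for any difference, and the gene with the highest mean CPM, were to be named, and others are named as chosen after their values were seen. A gene that the rule names is not reported here. No 2 replicates agreed within sampling noise (chi-square at least 5.17 per gene over 30 pairs). With agrin and 11-3F6xb12 the chi-square was 5.17 between replicates 1 and 2 and 8.08 between 3 and 4. Across these sets it was 29.97 to 38.45 in that group. The control went otherwise, at 30.7 between replicates 1 and 2 and 16.2 between 1 and 4. So did agrin with 13-3B5xb12, at 21.4 between replicates 1 and 2, 18.1 between 2 and 3 and 18.6 between 2 and 4. Tried instead were a block for replicate number, size factors and tests of DESeq2 1.42.0, and other filters on low counts. Removal of the 2 genes above 1% of a library, fits of only the groups compared and removal of each library were also tried. Those 2 genes were mt-Rnr1 and mt-Rnr2, the second at up to 35.9% of a library. Mitochondrial genes held 30.2 to 39.1% of counts in replicates 1 and 2, and 27.9 to 32.5% in 3 and 4. The part of that share in the differences between replicate numbers was not tested. After seeing the data, a fit without 2 libraries and a fit of replicates 1 to 3 were added.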

Additional observations from a re-analysis of the deposited data

Results flagged for a closer look

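In the agrin group, Bmpr1a was at 252.3 CPM in replicate 1 and between 238.9 and 239.3 CPM in the other replicates, so the gap to the nearest library was 0.97 of the range. With agrin and 13-3B5xb12 it was at 271.0 CPM in replicate 1, the library with the fewest genes detected, and between 226.4 and 230.1 CPM in the others, a gap of 0.917 of the range. Over all 5 treatments Bmpr1a averaged 256 ± 8.46 CPM in the replicate 1 libraries and 236, 236 and 238 CPM in replicates 2, 3 and 4 (SD, n = 5; edgeR adjusted p = 0.362 across numbers). Both libraries were found among 50 groups of 4 examined for a value far from the rest, where chance gives about 2.5.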

How the results depend on the processing

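No member was called between treatments under any alternative run. Libraries of the same replicate number were no more alike than other libraries of replicates 1 and 2, or of 3 and 4. The mean correlation of their deviations was 0.195, against 0.201 for different numbers, both 1 and 2 or both 3 and 4. Same-numbered libraries deviated together with a correlation above 0.1 in every pair in 4 of 8 comparisons. The lowest correlation was 0.008, and 11 of 20 libraries correlated best with their own number. With the replicate number as a block, the members called stayed at 0, and the genes called were 2 for 11-3F6xb12 against agrin, 3 for 11-3F6xb12 against control, 5 between the monovalent antibodies and 2 for any difference, against 0 without it. With no filter on low counts the genes called were 4 (agrin against control), 2 (bivalent 13-3B5 against control), 7 (bivalent 13-3B5 against agrin), 6 (13-3B5xb12 against agrin), 13 (11-3F6xb12 against agrin), 3 (13-3B5xb12 against control), 13 (11-3F6xb12 against control), 27 (between the monovalent antibodies) and 50 (any difference); the cause was not tested. DESeq2 called 2 genes between the monovalent antibodies. By replicate number, the members called were 3 by DESeq2, 3 without the 2 libraries that stood apart, and 0 to 2 when 1 library was left out, against 1. The cause was not tested.

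Small differences changed sign. With replicates 1 to 3 only, the log2 fold change of Id1 for agrin against control was -0.10 and that of Rgs4 for 11-3F6xb12 against agrin was -0.0016. Id3 for agrin against control was 0.11 without the 2 libraries that stood apart. Leaving out 1 library at a time gave, for agrin against control, -0.17 to 0.18 for Id1, -0.16 to 0.085 for Id2, -0.10 to 0.14 for Id3, -0.0101 to 0.0399 for Bmpr1a and -0.0735 to 0.69 for Rgs4. For bivalent 13-3B5 against control it gave -0.21 to 0.0388 for Id1, -0.12 to 0.10 for Id2, -0.18 to 0.0018 for Smad6, -0.22 to 0.0346 for Smad7 and -0.0187 to 0.0313 for Bmpr1a. Rgs4 for 11-3F6xb12 against agrin ran from -0.25 to 0.51. Without the 2 libraries farthest from the median, Pearson's r was 0.362 and -0.361 for Id1 and Id3, and -0.423 and -0.52 for Id1 and Smad7, in replicates 1 and 2 and in 3 and 4. Other pairs kept their sign but moved in size. For Id1 and Bmp4 in replicates 3 and 4, r went from 0.044 to 0.751. For Id1 and Smad6 in replicates 1 and 2 it went from 0.343 to 0.637. Without the 2 genes above 1% of a library, mean levels were higher: Id1 8.87, Id2 16.2, Id3 10.0, Smad6 7.95, Smad7 16.7, Bmp4 14.5, Bmpr1a 355.6, Bmpr2 125 and Acvr1 23.7 CPM. Rgs4, with at most 31 counts, is limited by depth.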
